A study of Mus musculus with 12 samples.

Results

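The Hoxc genes are the 9 Hox genes that lie side by side in the HoxC cluster, and they were taken by name from the count table: Hoxc4, Hoxc5, Hoxc6, Hoxc8, Hoxc9, Hoxc10, Hoxc11, Hoxc12 and Hoxc13. All 9 of 9 were among the 23420 genes of the table, and 6 of the 9 had enough reads to be tested. RNA sequencing was carried out on 12 libraries of mouse fat, 3 from each of 4 depots. The depots were interscapular brown fat between the shoulder blades (iBAT), supraclavicular brown fat above the collarbone (scBAT), inguinal white fat under the skin of the groin (iWAT) and epididymal white fat in the abdomen (eWAT). Every mouse was an untreated male C57BL/6 animal aged 8 weeks and kept at ambient temperature, and no allele, transgene or agent is named for any group. The labels do not say whether the 3 libraries of a depot came from separate animals or from pools, and the p-values therefore measure only the spread between these samples, which may be technical.

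Hox genes encode homeodomain transcription factors that give cells their position along the head-to-tail axis of the embryo. Within a cluster they are switched on in the order in which they lie on the chromosome, so that genes at the 3′ end are active further towards the head than genes at the 5′ end, and cells of adult tissue often keep the pattern of the body region they came from. In fat, depots from different body regions are known for different Hox patterns, and some HoxC proteins act on adipocyte genes: Hoxc8 can repress C/EBPβ, a factor of adipogenesis, and Hoxc10 can repress Prdm16, a regulator of thermogenic genes.

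The cluster lies on chromosome 15 of GRCm38, where the 9 genes are all on the plus strand and run from the start of Hoxc13 at 102921103 to the end of Hoxc4 at 103036852, a stretch of 115750 bases. Hoxc4 (103018934 to 103036852) is the most 3′ gene. Towards the 5′ end follow Hoxc6 (102998257 to 103011881), Hoxc8 (102990607 to 102994111), Hoxc9 (102976439 to 102985099), Hoxc10 (102966796 to 102971893), Hoxc11 (102954427 to 102957708), Hoxc12 (102936757 to 102938609) and Hoxc13. The annotated span of Hoxc5 (102967443 to 103017429) holds a long upstream transcript that runs across Hoxc6, Hoxc8, Hoxc9 and part of Hoxc10. Of the exon bases of Hoxc5, 166 (5.37%) are also exon bases of Hoxc10, so that reads from there cannot be assigned with certainty to either gene.

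Besides the protein-coding genes the cluster holds the microRNA genes Mir196a-2, between Hoxc10 and Hoxc9, and Mir615, inside the span of Hoxc5. The mature strands are shown because Hoxc8, the gene with the highest level per length in both white depots and 2 reads in all of scBAT, is the Hoxc gene that holds matches to the miR-196a-5p seed. Whether the microRNA has a part in the level of Hoxc8 was not tested. The sequences are from RefSeq on GRCm38.p6, with the seed (bases 2 to 8) in capitals, and each mature strand has a seed of its own.
miR-196a-5p (chr15:102973365-102973386): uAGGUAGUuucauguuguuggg
miR-196a-2-3p (chr15:102973401-102973422): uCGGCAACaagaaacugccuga
miR-615-5p (chr15:103014926-103014947): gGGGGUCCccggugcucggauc
miR-615-3p (chr15:103014969-103014990): uCCGAGCCugggucucccucuu

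The 3′ UTRs of the GENCODE transcripts were searched on the transcript's strand for the exact complement of each seed. For each gene only the transcript with the longest 3′ UTR was used, and genes with a very short one were left out. The complement of the miR-196a-5p seed is ACTACCT, and Hoxc8 holds it 2 times. None of the other 8 Hoxc 3′ UTRs has these letters. Of the 20829 mouse genes with a 3′ UTR kept in this way, whose median length is 976 bases, 1283 (6.16%) have at least 1 match and 114 (0.547%) have 2 or more. The 3′ UTR of Hoxc8 is 966 bases long, close to that median. The matches begin at bases 135 and 892 after the stop codon and stand in capitals, each in the 22 bases that would face the mature strand.
Hoxc8 site at base 135 (chr15:102992976-102992997, plus strand): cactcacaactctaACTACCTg
Hoxc8 site at base 892 (chr15:102993733-102993754, plus strand): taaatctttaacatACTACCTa
The complement of the miR-615-5p seed, GGACCCC, occurs 1 time in Hoxc6 and 1 time in Hoxc11, beside 6.64% of all genes with at least 1 match.
Hoxc6 site at base 147 (chr15:103011174-103011195, plus strand): taaaagtcagctttGGACCCCc
Hoxc11 site at base 254 (chr15:102956941-102956962, plus strand): gacccgtggttagtGGACCCCg
No Hoxc gene has a match to the seeds of the 2 other strands, which are found in 1.42% (miR-196a-2-3p) and 2.32% (miR-615-3p) of all genes. A match is a string of letters and not a measured target site. The libraries, made from total RNA with a protocol for long transcripts, counted no read for Mir196a-2 in any of the 12 libraries and at most 1 for Mir615, which says nothing of the mature strands.

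Total counts ran from 17159401 to 29262554 per library. Levels are given as CPM, counts scaled by a library's effective size to one common total, and a gene is called where its p from edgeR's quasi-likelihood test, adjusted by Benjamini-Hochberg over all 14898 tested genes, is under 0.05. The tissue labels were checked against markers: 6 brown adipocyte markers, Ucp1 among them, summed to 3718 to 4894 CPM in the brown libraries and to 71.8 to 298.9 CPM in the white ones. The iWAT libraries stood apart from each other. The sum of 8 B cell markers, all above 0 in the iWAT libraries, was 1423, 81.7 and 1950 CPM in iWAT libraries 1, 2 and 3 and at most 39.5 CPM in every other library, and 8 T cell markers summed to 826, 56.0 and 1282 CPM in the same order. The sum of 8 adipocyte markers was 7470, 12870 and 4646 CPM in them, against 10380 to 12520 CPM in the other 9 libraries. Results for iWAT are therefore given with all 3 libraries and, for a part of the genes, with library 2 alone. For Hoxc4 the range over all alternative fits is given.

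The Hoxc genes were read to a different depth of the cluster in each depot. A gene counted as detected in a depot where each of its 3 libraries had at least 10 reads. In scBAT 3 of the 9 genes were detected, Hoxc4 to Hoxc6. In iBAT 4 were detected, up to Hoxc8, in eWAT 5, up to Hoxc9, and in iWAT 6, up to Hoxc10. Each depot's set held the set of the depot before it and added the next gene in 5′ direction. Of all 23420 genes, 56.0% were detected by this rule in scBAT, 55.4% in iBAT, 60.2% in eWAT and 59.3% in iWAT. The Hoxc counts were the same at a minimum of 3 reads, which 61.9%, 61.2%, 65.1% and 64.6% of all genes met in that order. At a minimum of 1 read eWAT reached 6 Hoxc genes as well, beside 66.5%, 65.9%, 69.7% and 69.8% of all genes. Hoxc11, a gene of hindlimb and posterior axial tissue, had 2 reads, both in iWAT library 2. Hoxc12 and Hoxc13, the most 5′ genes, which are known from hair follicles, had 0 reads in all libraries, where 3 reads over a depot would be 0.0352 to 0.0631 CPM. Such limits and the intervals below cover counting error only.

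**Figure D1:**
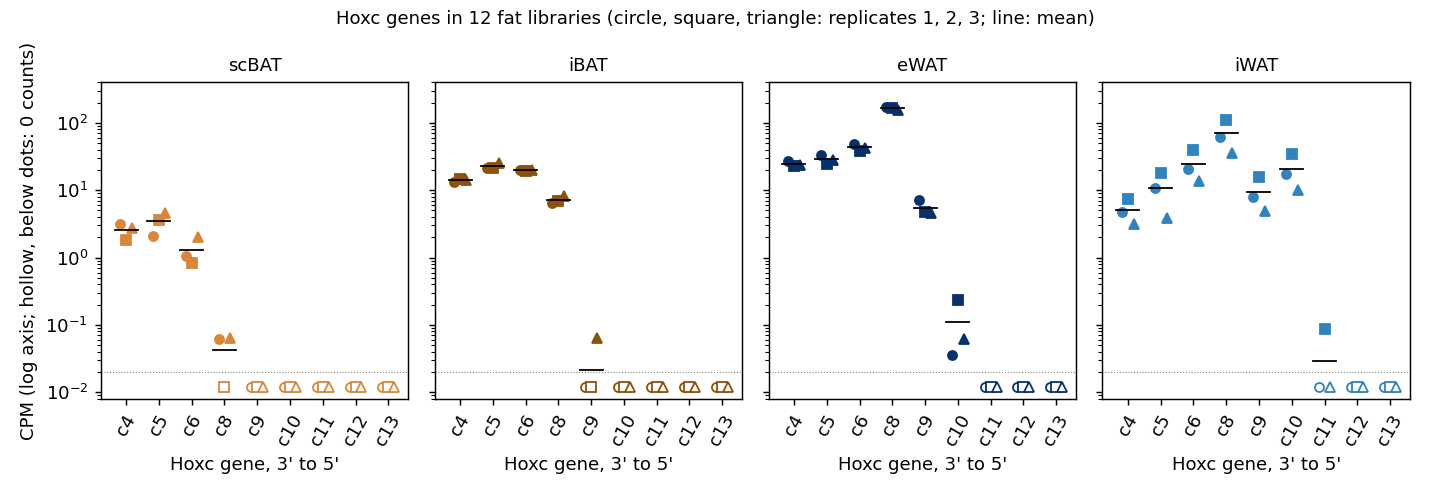
CPM (log axis) of the 9 Hoxc genes in cluster order, 1 panel per depot; circle, square and triangle are libraries 1, 2 and 3, the line is their mean, and hollow symbols below the dotted line are libraries with 0 counts. The rightmost gene with solid symbols well above the dotted line moves from Hoxc6 in scBAT to Hoxc8 in iBAT, Hoxc9 in eWAT and Hoxc10 in iWAT.

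Hoxc4, the most 3′ gene of the cluster, was present in all 12 libraries. Its level was 13.4, 14.5 and 14.2 CPM in iBAT and 3.11, 1.79 and 2.79 CPM in scBAT. It was 4.75, 7.48 and 3.13 CPM in iWAT and 27.5, 23.0 and 23.6 CPM in eWAT. The depots did not overlap in any pair. The level was highest in eWAT, followed by iBAT, iWAT and scBAT, the last 2 separated only by 3.13 against 3.11 CPM. Of all tested genes, 16.8% did not overlap between scBAT and iBAT and 34.9% between iWAT and eWAT. The share for pairs of a brown and a white depot is not reported here.

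Hoxc5, a gene of the neck and anterior trunk in the embryo, was measured at 21.5, 21.5 and 25.3 CPM in iBAT and at 2.11, 3.64 and 4.63 CPM in scBAT. The iWAT libraries had 10.97, 17.7 and 3.92 CPM and the eWAT libraries 33.2, 24.9 and 28.3 CPM. The ranges of eWAT and iBAT overlapped, as did those of iWAT and scBAT, while every library of the first pair was above every library of the second. Within iWAT this gene spread more than any other detected Hoxc gene, with a coefficient of variation of 63.6%.

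Hoxc6, which takes part in patterning the thorax and forelimb level, had 19.98, 19.5 and 19.6 CPM in iBAT, the tightest group of all with a coefficient of variation of 1.27%. In scBAT it had 1.06, 0.840 and 2.03 CPM. It had 21.0, 39.4 and 13.5 CPM in iWAT and 48.6, 38.7 and 42.6 CPM in eWAT. The scBAT libraries were below all others, and iWAT overlapped with iBAT at its low end and with eWAT at its high end.

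Hoxc8, the gene with the miR-196a-5p seed matches shown above, had 172.8, 168.3 and 157.3 CPM in eWAT and 62.4, 111.8 and 35.9 CPM in iWAT. In iBAT it had 6.54, 6.95 and 8.14 CPM. In scBAT the raw counts were 1, 0 and 1. No pair of depots overlapped, beside the shares of all tested genes given for Hoxc4, and the order was eWAT, iWAT, iBAT and scBAT.

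Hoxc9, which sets thoracic motor neuron identity in the embryo and is often used to mark white fat, had 7.84, 15.6 and 4.91 CPM in iWAT and 7.06, 4.76 and 4.52 CPM in eWAT. The white depots overlapped. In the 6 brown libraries a single read was counted, in iBAT library 3. Hoxc10, a gene of the lumbar and hindlimb level, had 17.5, 35.1 and 10.2 CPM in iWAT. In eWAT it had 1, 6 and 2 reads, and in the brown depots 0 reads in every library. The iWAT libraries were thus above all others by a wide margin, and the lowest of them had 311 reads.

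Levels of different genes can be compared only per length, and CPM were therefore divided by the length of all annotated exons. On that scale Hoxc6 was highest in iBAT, at 8.18 CPM per kb ± 0.104 (SD, n = 3), followed by Hoxc5 at 7.36 ± 0.721, Hoxc4 at 5.46 ± 0.220 and Hoxc8 at 2.55 ± 0.294. In eWAT the peak lay at Hoxc8, at 58.7 ± 2.83 CPM per kb, with Hoxc6 at 17.98 ± 2.07 next, Hoxc4 and Hoxc5 at 9.63 ± 0.955 and 9.32 ± 1.35 without a difference beyond their spread, and Hoxc9 at 2.24 ± 0.579. In iWAT it was again Hoxc8 that was highest, at 24.7 ± 13.6 CPM per kb. Hoxc10 at 10.97 ± 6.69 and Hoxc6 at 10.2 ± 5.54 followed in iWAT and did not differ beyond their spread. The scBAT levels were 1.121 ± 0.411 for Hoxc5, 0.998 ± 0.267 for Hoxc4 and 0.543 ± 0.263 CPM per kb for Hoxc6. With the longest transcript as the length, Hoxc4 and Hoxc5 change places in scBAT and Hoxc6 and Hoxc10 in iWAT, and the other places stay.

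**Figure D2:**
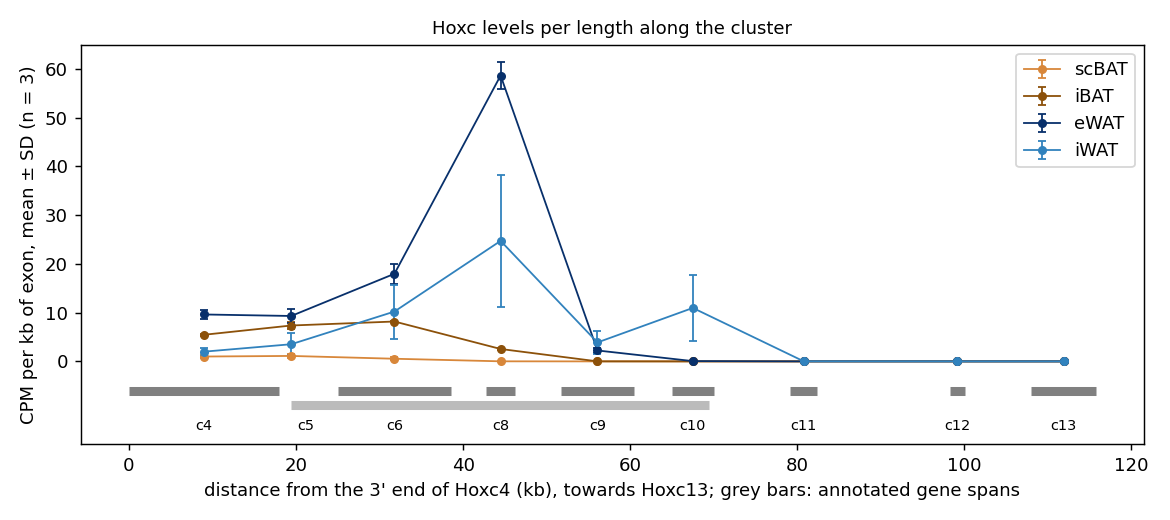
Mean CPM per kb of exon ± SD (n = 3 libraries, vertical axis) of each Hoxc gene against the distance of its middle, or for Hoxc5 of the 3′ end of its span, from the 3′ end of Hoxc4 in kb (horizontal axis), 1 line per depot; grey bars are the annotated gene spans. The eWAT and iWAT lines peak at Hoxc8, at 58.7 and 24.7 CPM per kb, the iBAT line peaks at Hoxc6, at 8.18, and only the iWAT line is raised at Hoxc10.

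The share of each gene in all Hoxc reads of a library shows the same gradient without reference to other genes. Hoxc4, Hoxc5 and Hoxc6 together made up 99.0% or more of the Hoxc reads in scBAT, 87.8% to 89.3% in iBAT, 33.3% to 37.8% in eWAT and 28.5% to 29.5% in iWAT. Hoxc8 took 10.7% to 12.1% in iBAT, 59.8% to 64.8% in eWAT and 49.2% to 50.1% in iWAT. Hoxc9 and Hoxc10 together took 20.4% to 22.3% in iWAT and 1.79% to 2.45% in eWAT. In each of these shares the depots named did not overlap, and the share of the 3 genes at the 3′ end per kb of exon differed from the share in reads by less than 2 percentage points in each depot's mean (89.2% against 88.7% in iBAT, 37.7% against 36.0% in eWAT). The number of Hoxc reads behind a share was 102 to 150 in scBAT, 979 to 1043 in iBAT, 2173 to 5163 in iWAT and 6555 to 8176 in eWAT.

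**Figure D3:**
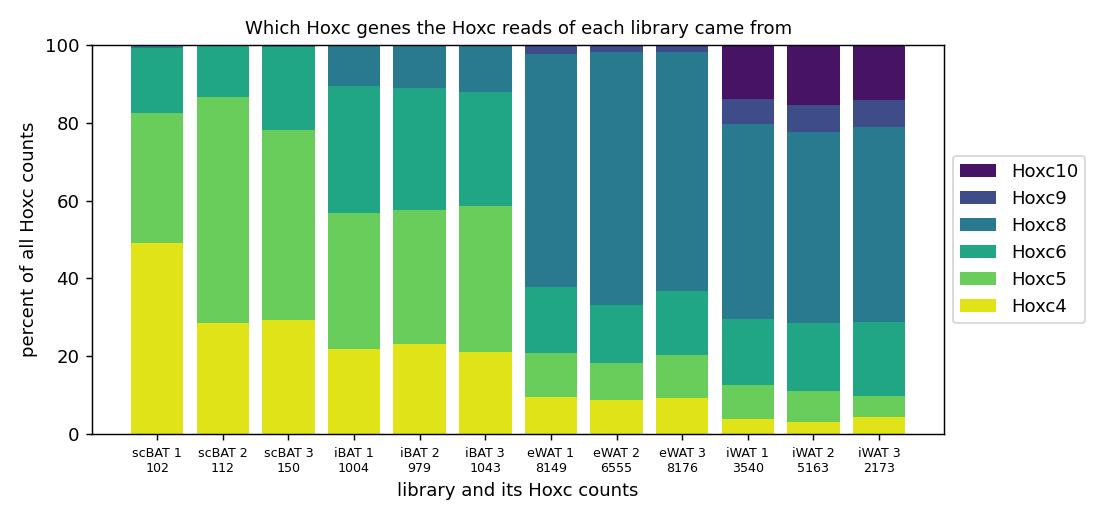
Percent of all Hoxc reads (vertical axis, from 0 to 100) that came from each Hoxc gene, 1 stacked bar per library with its number of Hoxc reads below. The part from Hoxc8 upwards grows from at most 0.980% in scBAT to the larger part of the bar in eWAT and iWAT, and Hoxc10 is visible only in iWAT; among the scBAT bars the Hoxc4 and Hoxc5 parts differ.

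The brown depots were compared first. Hoxc4, Hoxc5, Hoxc6 and Hoxc8 were all lower in scBAT than in iBAT. The difference was larger for Hoxc6, and larger again for Hoxc8, than for Hoxc4 and Hoxc5. Hoxc4 and Hoxc5 did not differ beyond their SE, and no trend was tested. All 4 passed the test, while 0.329% of all tested genes did and 0.0940% were called lower in scBAT. The other Hox clusters shared in this: 2 of 9 tested Hoxa genes and 4 of 8 Hoxb genes were called lower in scBAT, and 1 of 5 Hoxd genes higher. Hoxc4 was 5.47-fold lower, a log2 difference of -2.45 ± 0.304 (SE, adjusted p = 0.00787). Hoxc5 was 6.56-fold lower (-2.71 ± 0.469, adjusted p = 0.0446) and Hoxc6 15.1-fold lower (-3.92 ± 0.422, adjusted p = 0.00599). Hoxc8 had 342 reads over the iBAT libraries and 2 over the scBAT libraries, a 178.8-fold ratio with a 95% Clopper-Pearson interval of 49.1 to 1482 (adjusted p = 0.00599). Hoxc9, with 1 read against 0, and Hoxc10, with 0 in both, gave nothing to compare. The libraries of the depots did not overlap for the 4 genes called, which also held for 16.8% of all tested genes. In bulk tissue, fewer cells that express a gene and less RNA per cell cannot be told apart, here and below.

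The calls of Hoxc4 and Hoxc5 were lost when certain libraries were left out. The adjusted p of Hoxc4 was 0.0554, 0.0684 and 0.0586 without iBAT library 1, iBAT library 2 and scBAT library 2. Hoxc5 was not called without any one of the 6 brown libraries (0.0747 to 0.241), without iWAT library 1 (0.0917) or without eWAT library 1, 2 or 3 (0.1, 0.0763 and 0.0932). It was also not called under upper quartile scaling (0.0561), without the filter on low counts (0.0521), with limma-voom (0.206) or with the replicate block (0.119). All 4 log2 differences stayed negative in these fits. Hoxc6 and Hoxc8 kept their call without any single library, while with limma-voom their adjusted p was 0.055 and 0.240.

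Other markers moved between the brown depots too, and their part in the result was not tested. The sum of 8 salivary gland markers was 5840, 9825 and 2055 CPM in scBAT and 490 to 942.0 CPM in iBAT, with 1 of the 6 tested markers, Aqp5, called. The sum of 8 skeletal muscle markers was 1324 to 4560 CPM in scBAT and 299 to 1456 CPM in iBAT, with none called by edgeR. Of 8 macrophage markers, 4 were called higher in scBAT, and the sum was 240 to 262 against 122 to 153.9 CPM. The sum of 9 adipose progenitor markers was 857 to 937 CPM in scBAT and 545 to 654 CPM in iBAT, and that of 8 endothelial markers 1088 to 1225 against 1245 to 1480.0 CPM, neither with overlap and with 0 of 9 and 0 of 8 markers called by edgeR. The epididymal list, of which 3 markers were tested and none was called, summed to 45.4 to 452.5 CPM in scBAT and 5.62 to 13.6 CPM in iBAT, and the surface and mammary epithelium list to 4.38 to 62.7 against 2.32 to 3.94 CPM, with 0 of 6 tested markers called. The adipocyte markers summed to 10630 to 11980 CPM in scBAT and 10380 to 11380 CPM in iBAT, and none of the 8 was called.

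In the comparison of the white depots, the ends of the cluster went opposite ways. Towards the 3′ end, Hoxc4, Hoxc5 and Hoxc8 were lower in iWAT than in eWAT, and at the 5′ end Hoxc10 was higher. These 4 genes passed the test, as did 28.7% of all tested genes, so that the number alone does not set the cluster apart. Hoxc10 passed the filter only through iWAT, so that its call could only be higher in iWAT. Hoxc4 was 4.85-fold lower in iWAT, a log2 difference of -2.28 ± 0.290 (SE, adjusted p = 0.00147). Hoxc5 was 2.65-fold lower (-1.41 ± 0.434, adjusted p = 0.0363) and Hoxc8 2.37-fold lower (-1.25 ± 0.320, adjusted p = 0.0205). Hoxc6 (-0.82 ± 0.347, adjusted p = 0.0931) and Hoxc9 (0.79 ± 0.461, adjusted p = 0.203) were not called. Hoxc10 had 1606 reads over the iWAT libraries and 9 over the eWAT libraries, a 186.7-fold ratio with an interval of 98.1 to 408.9 (log2 difference 7.53 ± 0.797, adjusted p = 0.00338). The depots overlapped for Hoxc6 and Hoxc9 and not for the 4 genes called, against 34.9% of all tested genes without overlap.

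The direction of all 6 genes was the same in every alternative, while the calls of Hoxc5, Hoxc6 and Hoxc8 depended on which libraries were used. With iWAT library 2 as the only iWAT library, assumed to vary like the other depots, the log2 difference was -0.68 for Hoxc5 (adjusted p = 0.224), -0.11 for Hoxc6 (0.841), -0.55 for Hoxc8 (0.0378), 1.53 for Hoxc9 (0.0636) and 8.30 for Hoxc10 (0.00369). Hoxc4 kept its call without any single library, and its log2 difference ran from -2.65 to -1.70 over all alternatives. Hoxc5 was not called without any of the 3 iBAT libraries (0.0512 to 0.0531), scBAT library 2 (0.0520), iWAT library 1 (0.106) or eWAT library 1, 2 or 3 (0.103, 0.0696 and 0.0821). Hoxc8 was not called without iWAT library 1 (0.0801) or eWAT library 1, 2 or 3 (0.0674, 0.0579 and 0.0544). Hoxc6 was called lower with limma-voom (0.0379) and without iWAT library 2 (-1.32, adjusted p = 0.000463), and the log2 difference of Hoxc10 was 8.55 without eWAT library 2, which holds 6 of the 9 eWAT reads. For Hoxc5, the replicate number as a block gave an adjusted p of 0.0541, and in the fit of the pair alone neither Hoxc5 (0.154) nor Hoxc8 (0.133) was called.

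From Hoxc6 towards the 5′ end, ratios between neighbouring Hoxc genes varied less among the iWAT libraries than the levels did. The CPM of all Hoxc genes together was 124.5, 227.3 and 71.5 in iWAT libraries 1, 2 and 3, in the reverse order of the B cell marker sums and in the order of the adipocyte sums, with 3 libraries and no test. The coefficients of variation of the 6 detected genes in iWAT were 43.0% to 63.6%. The ratio of Hoxc9 to Hoxc8 reads was 0.126, 0.139 and 0.137, with a coefficient of variation of 5.44%, and that of Hoxc10 to Hoxc9 was 2.23, 2.25 and 2.09 (4.11%). In eWAT the ratio of Hoxc9 to Hoxc8 was 0.0409, 0.0283 and 0.0287, so that every iWAT library was above every eWAT library. The ratio of Hoxc8 to Hoxc6 was 2.97, 2.84 and 2.66 in iWAT and 3.56, 4.35 and 3.69 in eWAT, again without overlap. The ratios that involve Hoxc5 spread more, with coefficients of variation of 31.8% and 32.1% in iWAT. That of Hoxc5 to Hoxc4 was 2.31 and 2.37 in iWAT libraries 1 and 2 and 1.25 in library 3, against 1.08 to 1.21 in eWAT. That of Hoxc6 to Hoxc5 was 1.91, 2.22 and 3.45 in iWAT.

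**Figure D4:**
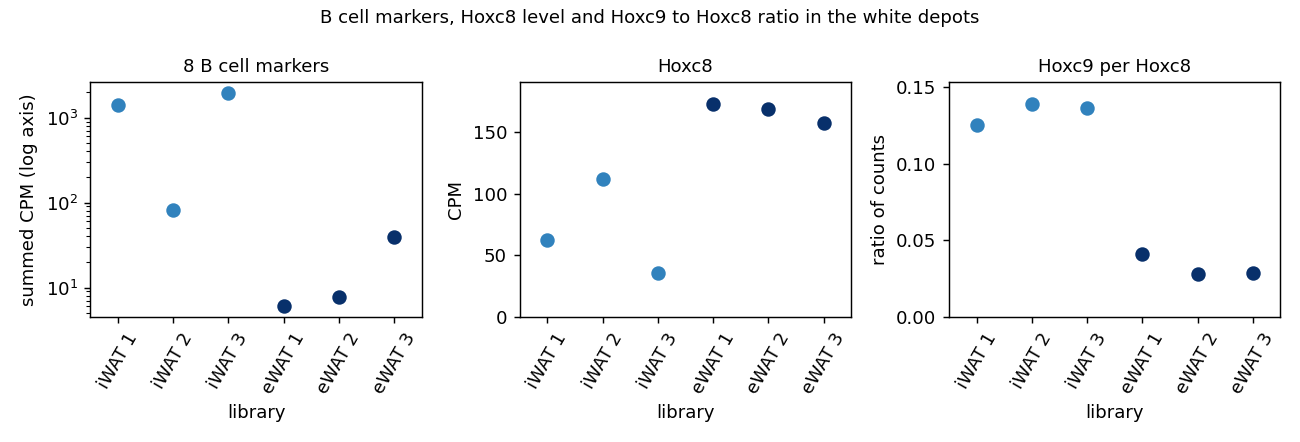
Summed CPM of 8 B cell markers (left, log axis), CPM of Hoxc8 (middle) and ratio of Hoxc9 to Hoxc8 reads (right) in the 3 iWAT and 3 eWAT libraries, 1 point each. Hoxc8 differs between the iWAT libraries, from 35.9 to 111.8 CPM, while the ratio stays between 0.126 and 0.139 in iWAT and between 0.0283 and 0.0409 in eWAT.

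Markers of other cells in the white depots moved with these differences, and their part in them was not tested beyond the values without iWAT libraries 1 and 3. All 8 B cell and all 8 T cell markers were called higher in iWAT. All 6 mesothelium markers, which belong to the lining of the abdominal cavity, were called lower in iWAT, with sums of 3.23 to 7.83 CPM against 391 to 491 CPM in eWAT. The adipose progenitor markers summed to 1682, 2566 and 1273 CPM in the iWAT libraries and to 2125 to 2150.0 CPM in eWAT, with 2 of 9 called higher and 2 lower. The surface and mammary epithelium markers summed to 7.64 to 10.7 CPM in iWAT and 81.3 to 213.9 CPM in eWAT, with 4 of 6 tested markers called lower in iWAT. The macrophage markers summed to 646 to 816 CPM in iWAT and 855 to 898.5 CPM in eWAT, with 1 of 8 called lower.

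Each brown depot was then set against each white depot, and since these comparisons share their libraries their values are given side by side. From iWAT to iBAT the sign changed along the cluster. Hoxc4 was 2.75-fold higher in iBAT (log2 difference 1.46 ± 0.286, adjusted p = 0.00131) and Hoxc8 9.71-fold lower (-3.28 ± 0.355, adjusted p = 3.08e-05). Between them, Hoxc5 (1.07 ± 0.433, adjusted p = 0.0507) and Hoxc6 (-0.32 ± 0.349, adjusted p = 0.441) were not called. Hoxc9 had 1 read in iBAT against 726 in iWAT, a 423.3-fold ratio with an interval of 75.7 to 16740 (adjusted p = 4.76e-05). Hoxc10 was at least 312.1-fold lower in iBAT, taking 3 reads over the 3 iBAT libraries as the limit for its 0 reads (adjusted p = 0.000223). In this comparison 4 of the 6 tested Hoxc genes were called, beside 63.0% of all tested genes. Hoxc9, with 1 read in iBAT and 0 in scBAT, and Hoxc10, with 0 in both, passed the filter only through white depots. A call of either against a white depot could therefore only be lower in the brown depot, here and below. Hoxc5 was called with DESeq2 (0.0249), with DESeq2 size factors in edgeR (0.0472), with limma-voom (0.0172), and without scBAT library 1 (0.0493) or iWAT library 2 (1.63, 0.00293). With iWAT library 2 alone it was at 0.36 (0.310). Hoxc6 was at -0.998 and called with iWAT library 2 alone (0.00274) but at 0.21 without it. With library 2 alone the log2 difference of Hoxc8 was -3.95. The fitted value of Hoxc9 was -9.165 in that fit in place of -8.46, and that of Hoxc10 -12.5 in place of -11.85. For Hoxc4 the log2 difference ran from 0.908 to 1.85 over all alternatives.

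Between iBAT and eWAT every called gene was lower in iBAT: Hoxc4 by 1.76-fold, Hoxc6 by 2.20-fold, Hoxc8 by 23.0-fold and Hoxc9, with 1 read against 463, by 258.1-fold with an interval of 46.1 to 10220. These are 4 of the 6 tested Hoxc genes, beside 53.7% of all tested genes called and 27.5% called lower. The adjusted p was 0.0287, 0.0187, 4.82e-06 and 7.95e-05 in that order. Hoxc5 was not called (-0.34 ± 0.426, adjusted p = 0.525), and Hoxc10, with 0 reads against 9, was at least 1.67-fold lower and not called (adjusted p = 0.125). Hoxc4 was not called without any one of the iBAT or eWAT libraries (0.0542 to 0.0942), nor Hoxc6 without iBAT library 1, 2 or 3 (0.0547, 0.0596 and 0.0569) or eWAT library 1 (0.0619). The single iBAT read of Hoxc9 was in library 3, and without that library the fitted log2 difference was -9.95 against eWAT and -10.73 against iWAT, in place of -7.67 and -8.46. Hoxc10 was called with DESeq2 (0.0442) and with the replicate number as a block (0.0302), and Hoxc5 in the fit of the pair alone (0.0368).

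scBAT was below both white depots for every Hoxc gene called. Against iWAT all 6 tested Hoxc genes were called, beside 61.6% of all tested genes called and 33.5% called lower. Hoxc4 was 1.99-fold lower in scBAT (adjusted p = 0.0141), Hoxc5 3.13-fold (0.00971) and Hoxc6 18.9-fold (2.44e-05). Hoxc8 was 1648-fold lower with an interval of 455.9 to 13610 (2.08e-06), Hoxc9 at least 147.6-fold (4.66e-05) and Hoxc10 at least 326.4-fold (0.000247). Hoxc4 was not called without scBAT library 2 (0.0644) or in the fit of the pair alone (0.0898), and Hoxc5 not with limma-voom (0.0683) or in the pair alone (0.0636). With iWAT library 2 alone the log2 difference of Hoxc5 was -2.36 in place of -1.65 and that of Hoxc6 -4.93 in place of -4.24. Hoxc8 was at -11.24 in that fit in place of -10.57, Hoxc9 at -11.33 in place of -10.7 and Hoxc10 at -12.5 in place of -11.85. For Hoxc4 the log2 difference ran from -1.55 to -0.621 over all alternatives.

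Against eWAT 5 of the 6 tested Hoxc genes were called lower in scBAT, beside 51.9% of all tested genes called and 25.8% called lower. Hoxc4 was 9.65-fold lower (adjusted p = 1.44e-05), Hoxc5 8.31-fold (0.000348) and Hoxc6 33.2-fold (7.92e-06). Hoxc8 was 4118-fold lower with an interval of 1140 to 34010 (7.2e-07) and Hoxc9 at least 89.96-fold lower (7e-05). Hoxc10 was at least 1.75-fold lower and not called (0.122), but was called with DESeq2 (0.0404) and with the replicate block (0.0289). The bounds given for Hoxc9 and Hoxc10 against 0 reads rest on the number of libraries: leaving out 1 library moved that of Hoxc9 to between 94.6 and 186.9 against iWAT and between 57.7 and 99.0 against eWAT. For Hoxc10 against iWAT it moved to between 204.7 and 401.1 in iBAT and between 209.2 and 419.5 in scBAT. Against the 9 eWAT reads it moved to between 0.791 and 2.22 in iBAT and between 0.828 and 2.32 in scBAT, a range that includes no difference.

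With the brown depots averaged and set against the average of the white ones, all 6 tested Hoxc genes were called lower in brown fat. Of all tested genes, 69.4% were called and 38.1% called lower. For Hoxc9 and Hoxc10, which passed the filter only through white depots, no other direction could be called. Single pairs differed from this average: Hoxc4 was 2.75-fold higher in iBAT than in iWAT and called (log2 difference 0.908 to 1.85 over all alternatives). Hoxc5 was called between iBAT and neither white depot, Hoxc6 not between iBAT and iWAT, and Hoxc10 between neither brown depot and eWAT. For Hoxc4, Hoxc5 and Hoxc6 the brown and white libraries overlapped. For Hoxc8, Hoxc9 and Hoxc10 they did not overlap. The share of all tested genes without such overlap was not determined, so that this does not set these genes apart. For Hoxc10 this rests in eWAT on 1, 6 and 2 reads against 0 in every brown library. Markers of other cells separated brown from white fat too, and their part in the Hoxc differences was not tested. The adipose progenitor markers summed to 545 to 937 CPM in the brown libraries and 1273 to 2566 CPM in the white ones, with 8 of 9 called lower in brown fat. The macrophage markers summed to 122 to 262 against 646 to 898.5 CPM, with 8 of 8 called lower, and the skeletal muscle markers to 299 to 4560 against 34.9 to 173.2 CPM, with 8 of 8 called higher.

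**Figure D5:**
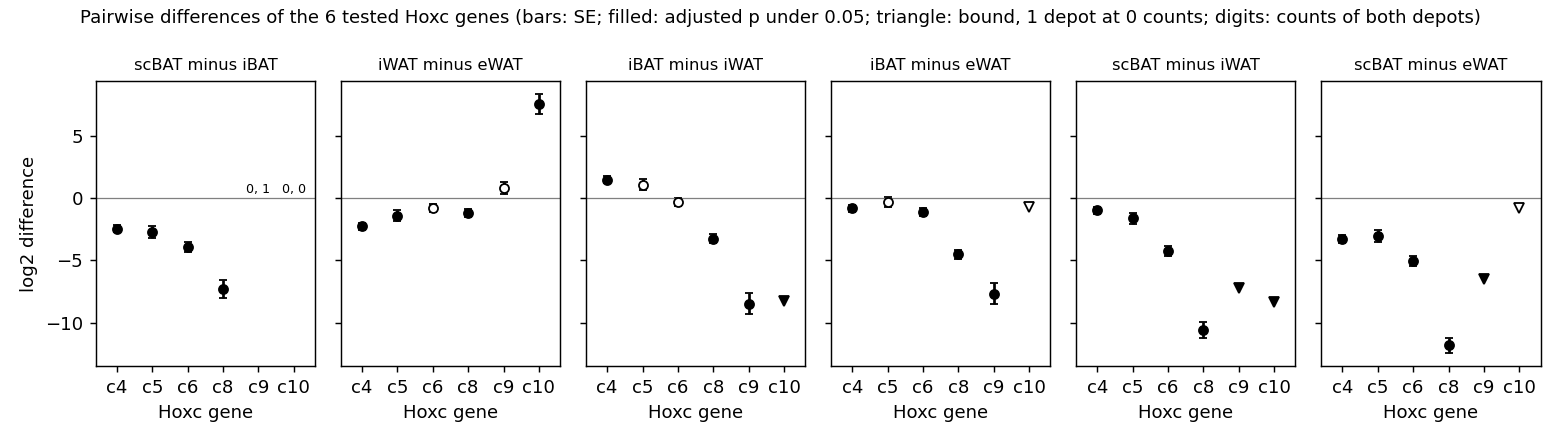
Log2 difference (vertical axis) of the 6 tested Hoxc genes in the 6 pairs of depots, with the SE as bars; filled symbols have an adjusted p under 0.05, triangles are lower bounds where 1 depot had 0 reads, and digits are the reads of both depots where no value is drawn. In the 5 panels with a brown depot Hoxc8 lies below Hoxc4, Hoxc5 and Hoxc6, and in iWAT minus eWAT the values run from -2.28 for Hoxc4 to 7.53 for Hoxc10.

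The genes next to the cluster were read in the same comparisons. Of 10 flanking genes on chromosome 15, 8 were tested and none was called in scBAT against iBAT by edgeR, DESeq2 or limma-voom (1 of 8 had an unadjusted p under 0.05), with a median log2 difference of -0.01 beside 0.00 over all tested genes. Only 0.329% of all tested genes were called there by edgeR, so that 0 of 8 does not set these genes apart. Between the white depots 2 of 8 were called, both lower in iWAT, beside 28.7% of all tested genes called. Itga5, which encodes an integrin subunit, had 29.9 ± 6.43 CPM in iWAT and 54.3 ± 0.732 CPM in eWAT (log2 difference -0.86, adjusted p = 0.00715). Zfp385a had 38.8 ± 11.9 CPM and 69.0 ± 4.51 CPM (-0.83, adjusted p = 0.0119, and not called without iWAT library 1 or eWAT library 1). The count was 0 with iWAT library 2 alone, 1 without iWAT library 1 or eWAT library 1 and 4 without iWAT library 2. The non-coding gene Hotair, which lies on the minus strand between Hoxc11 and Hoxc12, had 1 read each in iWAT libraries 2 and 3 and 0 in the other 10 libraries.

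HOX proteins bind DNA together with cofactors of the TALE family of homeodomain proteins. None of the 9 cofactor genes was called in scBAT against iBAT by any of the 3 tools (1 with an unadjusted p under 0.05), and their median log2 difference was 0.08. With 0.329% of all tested genes called there by edgeR, 0 of 9 does not set them apart. Between the white depots 1 of 9 was called higher and 2 lower in iWAT, with a median of -0.01, beside 28.7% of all tested genes called. Meis1 had 8.998 ± 2.91 CPM in iWAT and 29.8 ± 0.967 CPM in eWAT (-1.73, adjusted p = 0.00199), and it was called in every alternative. Without iWAT library 2 the number called was 6 of 9, and with it alone 1 of 9.

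Polycomb proteins keep Hox genes silent, and Trithorax proteins and H3K27 demethylases keep them active. In scBAT against iBAT 0 of 20 Polycomb genes and 0 of 11 Trithorax and demethylase genes were called by edgeR, DESeq2 or limma-voom, with 1 and 0 at an unadjusted p under 0.05 and medians of 0.01 and -0.05. Since 0.329% of all tested genes were called there by edgeR, these counts do not set the lists apart. In iWAT against eWAT 28.7% of all tested genes were called. There, 6 Polycomb genes were called higher and 3 lower, and 4 Trithorax and demethylase genes higher. The medians of the lists were 0.32 and 0.29, beside 0.00 over all tested genes. With iWAT library 2 alone both counts were 0. Without iWAT library 1, iWAT library 3, eWAT library 1 or eWAT library 3 the Polycomb count was 0, without eWAT library 2 it was 3, and without iWAT library 2 it was 17. The Trithorax count was 1 without iWAT library 1 or eWAT library 1, 2 without iWAT library 3, eWAT library 2 or eWAT library 3, and 7 without iWAT library 2.

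The other Hox clusters hold paralogs of the Hoxc genes. Hoxa4 had 18.1 ± 0.379 CPM in iBAT and 20.04 ± 0.980 CPM in scBAT, and Hoxa5 40.99 ± 3.24 and 35.7 ± 4.73 CPM. Neither was called in any alternative. The log2 ratio of Hoxc4 to Hoxa4 was -0.37 ± 0.0692 in iBAT and -3.00 ± 0.356 in scBAT, a difference of -2.63, and that of Hoxc5 to Hoxa5 was -0.85 ± 0.252 and -3.43 ± 0.631, a difference of -2.58. Each ratio was lower in 3 of 3 scBAT libraries, and the exact two-sided permutation p was 0.1 for both (0.1 after adjustment over the 2), the smallest that 3 against 3 allows. The test could thus not pass the threshold of 0.05 and decides nothing. Among the other paralogs of Hoxc4 and Hoxc5, Hoxb4 had 12.1 CPM in iBAT and 11.9 CPM in scBAT. Hoxd4 had 5.25 and 6.34 CPM and Hoxb5 2.79 and 1.43 CPM in that order. Further along, Hoxb6 (2.39 ± 0.399 CPM in iBAT, 0.263 ± 0.0483 in scBAT) and Hoxb9 (0.859 ± 0.212 CPM and 0 reads) were called lower in scBAT in every alternative, as Hoxc6 was in all but limma-voom. Hoxa6 had 1.52 ± 0.144 CPM in iBAT and 0.184 ± 0.0685 CPM in scBAT (adjusted p = 0.0115). Hoxb8 had 1.69 ± 0.676 and 0.105 ± 0.0966 CPM (adjusted p = 0.041). Both were called lower in scBAT, with the call lost in 5 and 12 of 20 alternatives. Hoxd8, a paralog of Hoxc8, went the other way: it had 9.76 ± 1.13 CPM in iBAT and 20.5 ± 1.35 CPM in scBAT and was called higher in scBAT (log2 difference 1.07, adjusted p = 0.0429), with the call lost in 14 of 20 alternatives, among them without any one of the brown libraries, iWAT library 1 or any eWAT library (up to 0.289). Hoxd9, a paralog of Hoxc9, had 2.19 ± 0.0185 CPM in iBAT and 2.02 ± 0.437 CPM in scBAT and was not called.

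Between the white depots, Hoxa9 and Hoxa10 were called higher in iWAT in every alternative. Hoxa10 had 9.62 ± 5.31 CPM in iWAT and 0.0710 ± 0.00830 CPM in eWAT, and at most 0.0611 CPM in any brown library, as Hoxc10 had its reads almost wholly in iWAT. Hoxa9 had 8.47 ± 5.47 CPM in iWAT and 0.480 ± 0.139 CPM in eWAT, whereas Hoxc9 overlapped between them. Hoxd10 had 1.08 ± 0.365 CPM in iWAT and 0.215 ± 0.118 CPM in eWAT.

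For each tested Hoxc gene the genes with the most similar profile were sought among 14306 genes, by the Pearson correlation of log2 CPM over the 12 libraries. These points share depots, libraries and scaling, so r is a description of similarity. The genes most like Hoxc4 were Asap2 (r = 0.92), Abcb1b (0.92) and Pclo (0.89), apart from Hoxc5 (0.93). For Hoxc5 they were Hoxa7 (0.91), the non-coding gene Mira (0.88) and Pclo (0.87). Hoxc6 was most like Hoxa7 (0.99), Hoxb6 (0.98) and Mira (0.98), and Hoxc8 most like Hoxb6, Hoxb8 and Hoxb9 (0.98 each), all Hox genes of other clusters. Hoxc9 was closely matched by Kcnk2 and Lgals3 (0.99 each), genes outside the Hox family with higher means in both white depots than in the brown ones. Hoxc10 was most like Hoxa10 (0.99), Fgl2 (0.98) and Pla2g5 (0.97), genes with their highest mean in iWAT.

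Likeness to Hoxc4 fell in the order of the genes on the chromosome. Its correlation was 0.93 for Hoxc5, 0.83 for Hoxc6, 0.72 for Hoxc8, 0.32 for Hoxc9 and -0.22 for Hoxc10, so that the genes at each end of the detected stretch were the least alike. Hoxc10 was more like Hoxc9 (0.73) than Hoxc8 (0.49) or Hoxc6 (0.34).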

How the data were processed

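The table deposited by the authors holds raw counts, whole numbers of reads per gene symbol and library, which the authors did not normalize. The submitters' processing notes name HTSeq 0.6.1p1, STAR 2.4.2a and the build mm10, among others, without their roles, and the annotation and the strand setting are not given in the sources used here, so overlapping genes cannot be told apart with certainty. Per the labels, RNA came from a kit for fatty and fibrous tissue and went into TruSeq libraries.

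All 12 libraries entered 1 fit with a mean per depot in R 4.3.3 with edgeR 4.0.16 (filterByExpr, TMM, robust quasi-likelihood F test, 8 residual degrees of freedom). This left 14898 genes, over all of which p-values were adjusted by Benjamini-Hochberg, with a threshold of 0.05. SE is the log2 difference divided by the root of F. The biological coefficient of variation was 26.1%. CPM use TMM effective library sizes. Bounds use 3 counts over a depot, and ratios of few counts have exact 95% intervals. All 9 Hoxc genes are named. Of a list up to 4 members with the smallest adjusted p are named, and of other genes the 3 most correlated with each Hoxc gene (mean of at least 1 CPM in a depot, prior count 2, no predicted models). Some genes that this rule names are not reported here. The members and lists were chosen with earlier results of these data known. Kmt2a, Kmt2b and Kmt2c stand in the table as Mll1, Wbp7 and Mll3, and Adgre1 as Emr1. Positions, exon lengths and 3′ UTRs are from GENCODE on GRCm38, the build of mm10. The test was tried on simulated data. Alternatives were DESeq2 1.42.0 and its size factors, upper quartile scaling, no filter, limma-voom (limma 3.58.1), a replicate block, each library left out, iWAT libraries 1 and 3 left out, and each pair alone.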

Additional observations from a re-analysis of the deposited data

How the results depend on the processing

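Of 42 differences of tested Hoxc genes, 33 were called and 23 of these were called in all alternatives run for them, 9 were not called and 3 of these were not called in any alternative, and no called difference changed sign. The number of Hoxc genes called in scBAT against iBAT was 4, with 1 in limma-voom and 2 to 4 with 1 library left out. In iWAT against eWAT it was 4, with 2 in the fit of that pair alone and 2 to 5 with 1 library left out, and in iBAT against eWAT it was 4, with 2 to 4 with 1 library left out. The causes were not tested, and leaving a library out changes both the number of samples and which libraries are used. The labels do not say whether the replicate numbers pair the samples. Of 18 same-numbered pairs 5 had a correlation of deviations over 0.1 (range -0.184 to 0.234), and 3 of 12 libraries were most like those of their own number. With 3 libraries per depot these values cannot decide whether the samples were paired. With the replicate number as a block the count was 3 in scBAT against iBAT, where Hoxc5 had an adjusted p of 0.119, and 3 in iWAT against eWAT. Over all genes, 49 were called in scBAT against iBAT, beside 210 in DESeq2, 29 in limma-voom, 18 with the replicate block, 287 without iWAT libraries 1 and 3, 154 in the pair alone and 10 to 145 with 1 library left out. In iWAT against eWAT 4277 were called, beside 892 without iWAT libraries 1 and 3, 210 in the pair alone and 1221 to 10323 with 1 library left out. The median log2 difference of all genes was -0.13 in iBAT against iWAT and -0.11 in scBAT against iWAT. In scBAT, 64 reads of Hoxc6 and 2 of Hoxc8 over the depot limit the precision.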
